A study of Mus musculus with 24 samples.

Results

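Mitochondrial ribosomal proteins, the proteins of the ribosome inside mitochondria, were followed through 24 h of culture of mouse blood rich in reticulocytes, the youngest red cells. Members were all genes whose symbol in the probe annotation is Mrpl or Mrps followed by a number and, for some, a letter from a to c. These were 76 of the 16593 gene symbols on the array, 47 named for the large subunit (Mrpl) and 29 for the small subunit (Mrps). The rule used symbols only, but it was chosen with earlier results of these data known. Total RNA was measured on 24 Illumina bead arrays. Each of the times 0, 12 and 24 h after the start of culture had 3 wild-type samples and 5 mutant samples. Every sample came from adult male mice of the C57BL/6J strain. The labels call the second group only mutant and name no gene, so no targeted gene could be checked. Blood was cultured ex vivo and drawn at each time, and the submitters' design text calls the samples biological replicates.

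Mitochondrial ribosomes translate the few membrane proteins of the respiratory chain that mitochondrial DNA encodes. Their own proteins are encoded in the nucleus, made on cytosolic ribosomes and imported. The small subunit decodes the messenger RNA and the large subunit joins the amino acids. A maturing reticulocyte clears its mitochondria and its cytosolic ribosomes, and its RNA declines as no nucleus is left to replace it.

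Member signals were faint. A probe was called detected on an array where the deposited detection p was below 0.01, and the lowest log2 signal so called was noted for each array. That lowest detected signal lay between 6.64 and 7.80 on the wild-type 0 h arrays, between 6.18 and 6.55 at 12 h and between 6.00 and 6.12 at 24 h. On the mutant arrays it was lower, 5.25 to 6.97 at 0 h, 4.95 to 5.47 at 12 h and 5.20 to 5.70 at 24 h. Raw array medians were 132 to 298 intensity units at 0 h and 38.7 to 44.7 later. At 0 h, wild-type replicates 2 and 3 and mutant replicates 1 and 2 had medians above 200. On a given array the bead-to-bead standard error of a member was in the median 4.55% of its signal, over a median of 40 beads. The number of arrays, 3 and 5 a group, limits the precision.

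Few members rose above background in wild-type cells and many in mutant cells. On the 3 wild-type arrays 5, 1 and 1 of the 76 members were detected at 0 h, 8, 5 and 2 at 12 h, and 11, 11 and 5 at 24 h. The mutant arrays detected 2, 7, 26, 32 and 36 members at 0 h, 25, 46, 55, 60 and 50 at 12 h, and 13, 25, 30, 39 and 27 at 24 h. Every mutant array was above every wild-type array at 12 and 24 h. At 0 h mutant array 1 lay within the wild-type range, and arrays 1 and 2, those of high raw background, lay below the other mutant arrays. The mean share of members detected on an array was 3.07% ± 3.04 (SD, n = 3), 6.57% ± 3.94 and 11.9% ± 4.57 in wild type at 0, 12 and 24 h, and 27.1% ± 20 (SD, n = 5), 62.1% ± 17.7 and 35.3% ± 12.4 in mutant. Over all 25697 probes the means were 3.46%, 5.72% and 7.32% in wild type and 9.89%, 20.9% and 14.5% in mutant. Both subunits gave the same picture: at 12 h the mutant arrays detected 16 to 36 of the 47 large subunit members and 9 to 24 of the 29 small subunit members, against 1 to 5 and 1 to 3 on the wild-type arrays.

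Quantile normalization gives every array the same set of values. An array's lowest detected signal therefore largely restates how many probes it detected, and is no separate measure of how faint a signal it could read. When all arrays of a time were read at 1 common level, the highest of their lowest detected signals (7.80, 6.55 and 6.12 on the log2 scale at 0, 12 and 24 h, a reading added after the data were seen), the numbers of members on wild-type and mutant arrays overlapped. At 12 h 4, 5 and 2 members lay above it in wild type and 4, 3, 5, 3 and 4 in mutant. At 24 h these numbers were 11, 8 and 5 against 6, 5, 5, 6 and 6, and at 0 h no array held more than 1. Quantile normalization places 1264 probes above the 12 h level on each array, so these counts compare ranks within an array.

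**Figure D1:**
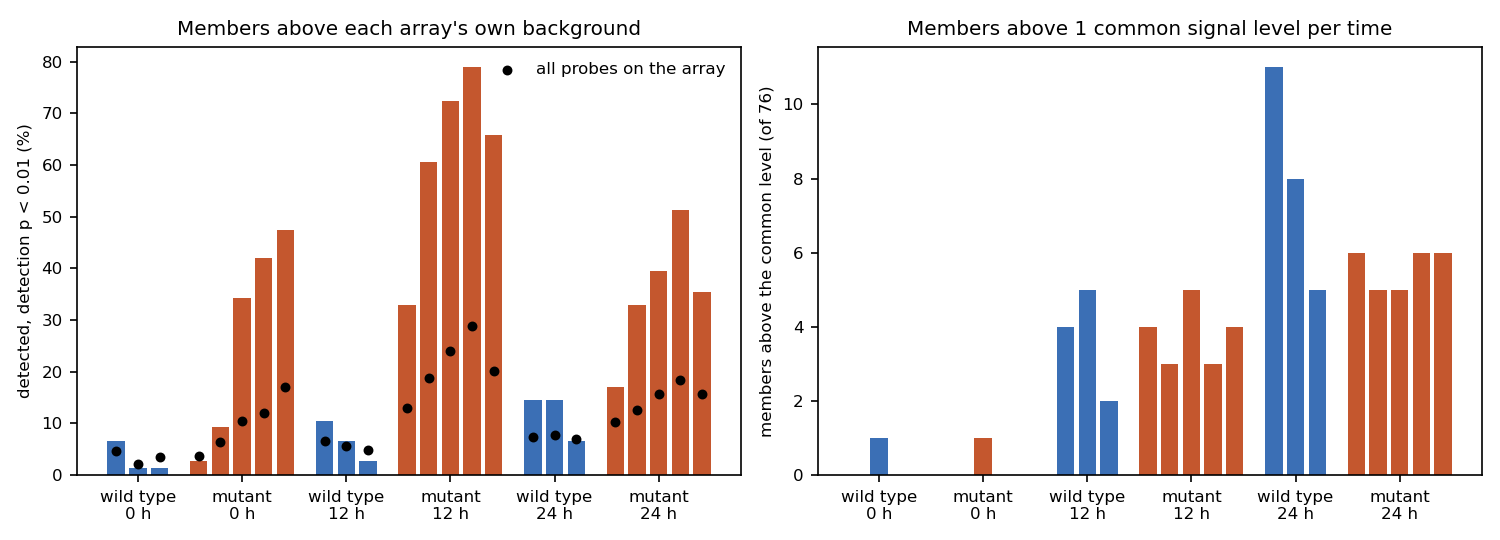
Left, share of the 76 members detected on each array (bars, %; blue wild type, orange mutant, replicates in order) and of all probes (black points). Right, number of members above 1 common log2 signal level per time. Mutant bars reach 60 of 76 members at 12 h on the left, whereas on the right wild-type and mutant arrays at 12 h both hold 2 to 5.

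**Figure D2:**
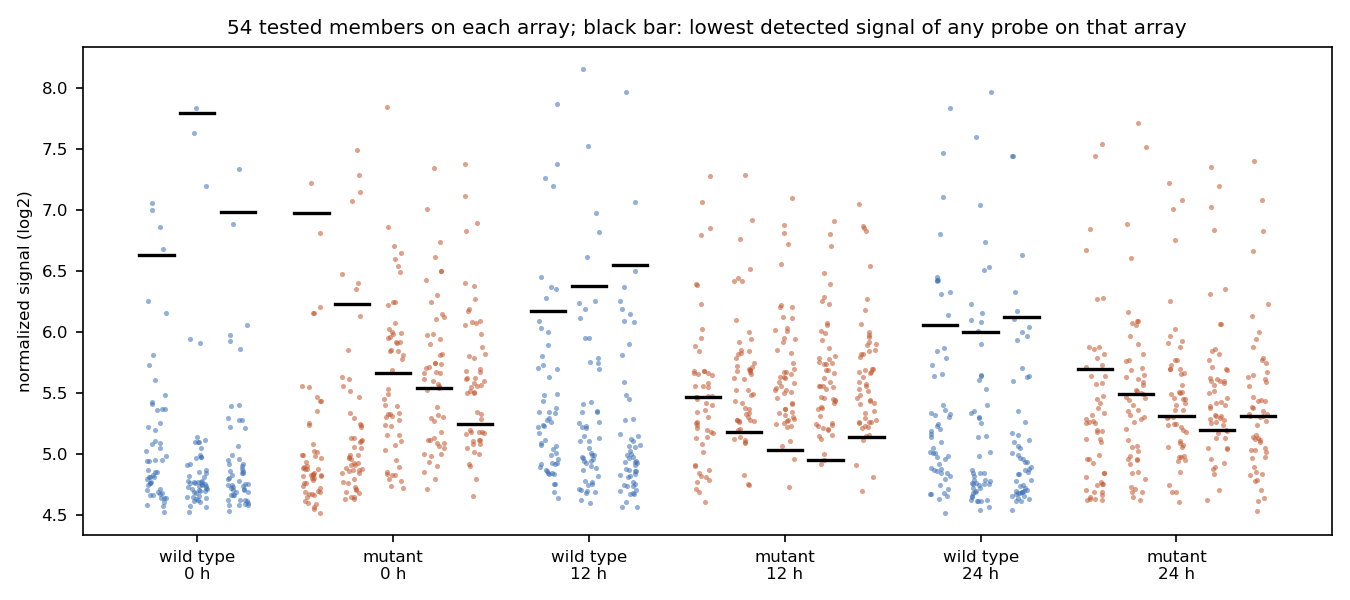
Normalized log2 signal of the 54 tested members (points) on each array, with the lowest detected signal of any probe on that array as a black bar. The bars fall from 6.18 to 6.55 on wild-type 12 h arrays to 4.95 to 5.47 on mutant 12 h arrays, so most wild-type points lie under the bar and most mutant 12 h points above it.

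For tests, probes detected on at least 3 of the 24 arrays were kept and each gene was read by its brightest such probe, which left 54 members, 34 large and 20 small, among 4846 genes. Of these 54, 53 were detected on 3 or more mutant arrays but only 7 on 3 or more wild-type arrays, and 40 on none, so most members entered through the genotype in which they were detected. The counts below therefore describe, and are given beside the same over all genes. The 22 members not tested were Mrpl11, Mrpl15, Mrpl16, Mrpl19, Mrpl21, Mrpl32, Mrpl35, Mrpl39, Mrpl45, Mrpl47, Mrpl51, Mrpl57, Mrpl58, Mrps2, Mrps6, Mrps14, Mrps15, Mrps22, Mrps25, Mrps27, Mrps28 and Mrps36. Of them 14 were detected on no array.

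The 7 members detected on 3 or more wild-type arrays were Mrpl13, Mrpl30, Mrpl33, Mrpl37, Mrps21, Mrps24 and Mrps33. Mrpl30, a large subunit protein with a bacterial counterpart, had the highest wild-type mean of these at 12 h. Its log2 signals were 6.86, 4.71 and 4.73 in wild type and 4.91, 4.87, 6.49, 6.62 and 6.40 in mutant at 0 h. At 12 h they were 7.87, 8.15 and 7.96 against 7.28, 7.29, 6.81, 6.80 and 6.85, and at 24 h 7.47, 7.60 and 7.44 against 7.44, 7.71, 7.22, 7.20 and 7.40. Every wild-type value lay above every mutant value at 12 h, but the difference did not pass the test (-0.99 ± 0.42, limma adjusted p = 0.0551), and at 24 h the genotypes overlapped.

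Mrps21, counterpart of a small bacterial protein of the small subunit, gave 7.002, 7.20 and 4.92 in wild type and 5.55, 5.85, 6.22, 6.12 and 5.62 in mutant at 0 h. At 12 h its signals were 7.37, 7.52 and 7.06 and 6.85, 6.42, 6.01, 5.99 and 5.96, and at 24 h 7.84, 7.97 and 7.44 and 7.54, 7.52, 7.003, 7.02 and 7.08. Its 12 h values did not overlap, with all mutant values lower.

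Mrps24, which holds the place of bacterial protein uS3 at the entry of the messenger RNA, stood at 6.25, 4.65 and 4.78 in wild type and 5.02, 7.49, 7.84, 7.34 and 7.37 in mutant at 0 h. From 12 h on the genotypes overlapped, with 7.20, 6.82 and 6.50 against 6.80, 6.92, 7.10, 6.91 and 6.83 at 12 h and a difference of 0.07 ± 0.43 (SE; 95% interval -0.83 to 0.97; limma adjusted p = 0.915). Mrpl37, a large subunit protein without a bacterial counterpart, was detected on no wild-type array at 0 h, with 4.82, 4.81 and 4.76, but on 2 of 3 at 12 h, with 6.37, 6.61 and 6.19. Its mutant values at those times were 4.77, 5.30, 5.84, 5.74 and 5.70, and 5.56, 5.68, 5.75, 5.76 and 5.67. The wild-type values lay below 4 of the 5 mutant values at 0 h and above all of them at 12 h.

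**Figure D3:**
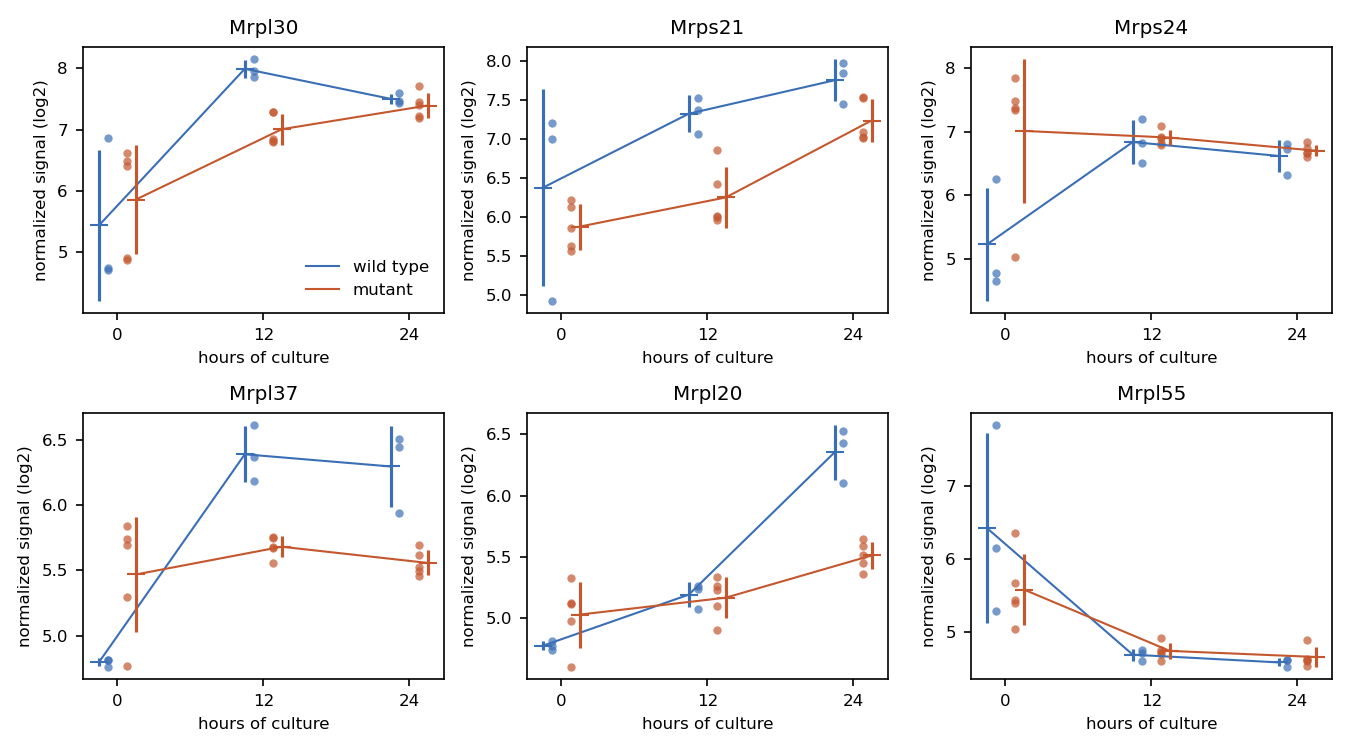
Normalized log2 signal of 6 members by hours of culture (points, arrays; line and bar, mean ± SD; blue wild type, n = 3, orange mutant, n = 5). Under quantile normalization Mrpl30, Mrps21 and Mrpl37 lie higher in wild type at 12 h (the signs of Mrps21 and Mrpl37 turn with median centring), Mrpl20 lies higher in wild type at 24 h, and Mrpl55 is lower from 12 h on in both genotypes.

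The stretches before the starts of Mrpl30 and Mrps21, the members detected on the most wild-type arrays, and of Mrpl17, which is called higher in mutant cells at 0 h below, are shown because they carry motifs of factors known to drive nuclear genes for mitochondria. They are the 250 bases before the start, 5′ to 3′ on the gene's strand, from RefSeq on GRCm38.p6, with NRF1 and ETS motif matches in capitals. Mrpl30 lies at chr1:37890227-37890476 on the plus strand, Mrps21 at chr3:95871515-95871764 on the minus strand and Mrpl17 at chr7:105811088-105811337 on the minus strand.
Mrpl30: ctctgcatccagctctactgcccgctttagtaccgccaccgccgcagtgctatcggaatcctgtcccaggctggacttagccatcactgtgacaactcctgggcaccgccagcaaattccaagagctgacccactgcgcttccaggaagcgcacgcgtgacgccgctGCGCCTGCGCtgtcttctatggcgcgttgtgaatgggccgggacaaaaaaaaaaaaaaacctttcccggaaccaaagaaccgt
Mrps21: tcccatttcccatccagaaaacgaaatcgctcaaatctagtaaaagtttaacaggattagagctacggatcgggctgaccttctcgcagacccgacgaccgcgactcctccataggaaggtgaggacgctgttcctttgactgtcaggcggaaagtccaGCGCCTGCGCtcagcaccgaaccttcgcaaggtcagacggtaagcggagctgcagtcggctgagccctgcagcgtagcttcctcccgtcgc
Mrpl17: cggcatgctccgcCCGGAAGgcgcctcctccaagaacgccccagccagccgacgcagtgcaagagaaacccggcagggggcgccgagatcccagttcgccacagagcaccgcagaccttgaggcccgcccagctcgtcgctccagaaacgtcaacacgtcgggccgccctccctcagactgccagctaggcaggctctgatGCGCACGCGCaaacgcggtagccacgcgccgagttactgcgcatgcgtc
The capitals in Mrpl30 and Mrps21 are an NRF1 match, and those in Mrpl17 an ETS match followed by an NRF1 match on the other strand. NRF1 is a master activator of nuclear genes for mitochondria, and GABP, an ETS factor, is also called NRF2.

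RefSeq held promoter windows of 300 bases (250 before the start, 50 after) for 67 of the 76 members, 73 windows in all. The NRF1 motif, searched like all others on both strands, was in 16.4% of them and in 4.6% of all 32851 windows. The ETS motif CCGGAAG was in 35.6% against 8.86%, and the YY1 motif AANATGGCG in 15.1% against 2.38%. Smaller gaps were seen for the Sp1 motif GGGCGG, at 53.4% against 35.7%, the E-box CACGTG, at 9.59% against 7.15%, the NF-Y motif CCAAT, at 39.7% against 37.4%, and the erythroid GATA motif AGATAA, at 15.1% against 11.2%. Sites of different motifs shared a base in 3 member windows. A gene with several windows can count more than once, as Mrpl2 does for the E-box and Mrpl2, Mrpl48 and Mrps16 do for Sp1. The median GC content was 58.7% in member windows and 52.7% in all, so the windows differ in base composition too, and these shares carry no test.

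Of the 67 members with a window, 25 (37.3%) had a gene starting on the other strand within 1000 bases upstream, against 12.3% of all 27025 genes. Mrpl46 of the large subunit and Mrps11 of the small subunit start 42 bases apart. The partners also include Sars2, the mitochondrial seryl-tRNA synthetase, 147 bases from Mrps12, and Twnk, the mitochondrial DNA helicase, 116 bases from Mrpl43. In 6 pairs both genes were tested. Mrpl46 was called higher in mutant cells at 12 h (limma adjusted p = 0.0125) while Mrps11 was not (-0.04 ± 0.17, adjusted p = 0.883), and no test compared these partners directly.

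At 0 h, limma with Benjamini-Hochberg adjustment over all genes called 22 members higher in mutant cells (40.7%) and 1 lower (1.85%), against 34.1% and 8.4% of all genes tested (42.5% in either direction). All 22 higher members were detected on at least 1 mutant array and on no wild-type array. A probe detected on no array of a group has only an upper bound there, so no fold is given for them. The member differences had a median of 0.38 on the log2 scale, against 0.26 over all genes. Over all genes 80.2% of calls were higher in mutant, 97.6% with median centring in place of quantile normalization and 91% in the authors' processed values.

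Mrpl42, a large subunit protein without a bacterial counterpart, had the lowest adjusted p among members at 0 h (limma, 0.000353). Its signals were 4.72, 4.69 and 4.75 in wild type and 4.88, 5.47, 5.69, 5.67 and 5.98 in mutant, without overlap, and 3 of 5 mutant arrays detected it. Mrpl9, whose bacterial counterpart reaches out from the large subunit, gave 4.85, 4.71 and 4.72 and 6.81, 5.05, 6.07, 5.60 and 5.56 (adjusted p = 0.00102). All of its mutant values were above the wild-type values as well. Mrps10, a protein of the head of the small subunit, gave 5.25, 4.98 and 4.80 and 5.56, 6.47, 5.31, 5.82 and 5.29 (adjusted p = 0.00373), again without overlap.

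Mrpl40 and Mrpl52 did not overlap at 0 h either, and for the other 17 called members the groups did. Mrps24 (values above; limma adjusted p = 0.00226) was detected on 4 of 5 mutant arrays, and its mutant replicate 1 lay between the wild-type values. Mrps12, which sits at the decoding centre, gave 4.68, 4.53 and 4.58 in wild type and 4.57, 5.34, 5.84, 5.91 and 5.67 in mutant (adjusted p = 0.00491). Mrpl10, the base of the flexible stalk that recruits translation factors, gave 4.64, 4.78 and 4.59 and 4.70, 5.23, 6.03, 5.98 and 6.17 (adjusted p = 0.00692). Mrpl17 gave 5.22, 5.05 and 4.88 and 7.22, 4.97, 5.91, 6.31 and 6.19 (adjusted p = 0.00706). In each of these 4 it was mutant array 1 or 2 that lay among the wild-type values, and mutant replicates 3, 4 and 5, the arrays of low background, were above all of them.

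The 1 lower member was Mrpl55, a large subunit protein of mitochondria, at 6.16, 7.83 and 5.28 in wild type and 5.44, 6.36, 5.40, 5.67 and 5.05 in mutant (-0.84 ± 0.33, limma adjusted p = 0.0409), a sign that turned with median centring (0.24, adjusted p = 0.224). Its groups overlapped, 1 wild-type and 2 mutant arrays detected it, and without wild-type replicate 2 the difference was -0.14 (adjusted p = 0.658). Groups did not overlap for 6 members higher in mutant, against 18.6% of all genes, and for 0 lower, against 3.8%.

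The 0 h calls depended on the arrays that entered. With only the 0 h arrays of high background 5 members were called higher and 2 lower, against 23.5% of all genes in either direction. With the 0 h arrays alone in the fit limma called 0 members (10 at an unadjusted p below 0.05), while 12.2% of all genes were called there. The count also rose in some alternatives, from 17 without wild-type 0 h replicate 2 to 29 without mutant 0 h replicate 1. The 0 h arrays of low background hold only 1 wild-type array, so no count is given for them.

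At 12 h the spread between mutant arrays was smaller, with a median SD of 0.14 over members against 0.40 at 0 h. Limma called 21 members higher in mutant cells (38.9%) and 2 lower (3.7%), against 34.3% and 15.9% of all genes tested (50.2% in either direction). The median difference was 0.35 over members and 0.29 over all genes. All 21 higher members were detected on 3 to 5 mutant arrays and on no wild-type array. Groups did not overlap for 23 members higher in mutant and 4 lower, against 41.3% and 18.5% of all genes.

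Mrps35, a small subunit protein without a bacterial counterpart, had the lowest adjusted p among members (0.000281, limma), with 4.84, 4.77 and 4.61 in wild type and 5.02, 5.12, 5.29, 5.39 and 5.23 in mutant. All its mutant values were higher, although only 3 of 5 were detected. Mrpl27, whose bacterial counterpart reaches the site where peptide bonds form, gave 4.93, 4.83 and 4.84 and 5.30, 5.10, 5.34, 5.24 and 5.44 (adjusted p = 0.00346). Mrpl24, a protein near the exit of the nascent chain, gave 5.23, 4.88 and 4.82 and 5.41, 5.82, 6.01, 6.06 and 6.07 (adjusted p = 0.00394). For both, every mutant value was above every wild-type value.

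Mrpl18, whose bacterial counterpart sits in the central protuberance of the large subunit, gave 4.70, 4.70 and 4.87 and 5.14, 5.27, 5.07, 5.13 and 5.12 (limma adjusted p = 0.00332), but its other probe past the filter did not pass (0.15, adjusted p = 0.151). Mrpl3, an early-binding protein of the large subunit, gave 4.76, 4.62 and 4.57 and 4.85, 5.28, 5.23, 5.16 and 5.30 (adjusted p = 0.00419). Mrps12 gave 5.30, 5.13 and 4.94 and 5.84, 5.83, 6.12, 6.26 and 6.002 (adjusted p = 0.00477), with all 5 mutant arrays detected. In all of these the genotypes did not overlap.

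Mrpl23, which lines the exit of the tunnel for the nascent chain, was the 1 member for which a fold could be bounded at 12 h. It gave 5.64, 5.74 and 5.48 in wild type, on no array above background, and 6.39, 6.51, 6.56, 6.39 and 6.54 in mutant, on 5 of 5, at least 1.08-fold higher in mutant (limma adjusted p = 0.0436). The bound sets the mutant mean against the lowest detected signal of each wild-type array, holds on the quantile-normalized scale and carries no error. In raw intensity wild-type replicate 1 (79.16) lay just above mutant replicate 1 (78.83), and the other mutant arrays gave 98.83 to 225.16. The call was lost in 12 of 17 alternatives, among them leaving out any 1 wild-type 12 h array or mutant 12 h replicate 2, 3, 4 or 5, with a largest adjusted p of 0.134.

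At 12 h 8 members were detected on at least 1 array of each genotype, of which 0 were called higher and 2 lower (limma), Mrps21 and Mrpl37. Of the 1371 genes detected in both genotypes 24.4% were called higher and 38.7% lower. The lowest detected log2 signal was 6.18 to 6.55 on wild-type 12 h arrays and 4.95 to 5.47 on mutant ones, so requiring detection in both keeps members with a high wild-type signal, and nothing is read from the direction of these counts. Mrps21 (values above) fell by 1.07 ± 0.36 (SE) on the log2 scale in mutant against wild type (adjusted p = 0.0202), detected on 3 of 3 wild-type and 5 of 5 mutant arrays. Mrpl37 differed by -0.71 ± 0.21 (SE; adjusted p = 0.00879), detected on 2 of 3 and 5 of 5. With median centring both signs turned, to 0.06 for Mrps21 (adjusted p = 0.895) and 0.57 for Mrpl37 (adjusted p = 0.177). The adjusted p of Mrps21 was 0.0518 without wild-type 12 h replicate 1 and 0.0779 without replicate 2, and that of Mrpl37 was 0.057 without replicate 2.

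The number called at 12 h moved with the scaling and with single arrays. It was 44, all higher, with median centring, against 69.9% of all genes called. Median centring moved the median of all genes by 0.49, to 0.78. In the authors' processed values it was 7 (4 higher, 3 lower), against 24.6% of all genes. Relative to the median of all genes, the member median was 0.05 under quantile normalization and 0.16 with median centring at 12 h, and 0.12 and 0.15 at 0 h, where centring moved the median of all genes by 0.35. Over all genes 68.3% of 12 h calls were higher in mutant, 91.6% with median centring and 28.1% in the authors' values. Without wild-type 12 h replicate 1, 2 or 3 the member count was 15, 12 or 11, and without mutant 12 h replicate 3 it was 15.

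At 24 h limma called 4 members higher in mutant cells (7.41%) and 2 lower (3.7%), against 8.61% and 8.17% of all genes tested (16.8% in either direction). The member median was 0.19 and that of all genes 0.17. The 4 higher members were Mrpl27, Mrpl34, Mrpl40 and Mrpl52, all of the large subunit. Mrpl27 gave 5.01, 4.87 and 4.84 in wild type and 5.42, 5.40, 5.50, 5.60 and 5.47 in mutant (adjusted p = 0.000472), with no wild-type and 3 of 5 mutant arrays detected. Mrpl34, a short protein with a bacterial counterpart, gave 5.01, 4.78 and 4.89 and 5.34, 5.50, 5.51, 5.26 and 5.39 (adjusted p = 0.0139), detected on no wild-type and 4 mutant arrays. Mrpl40 was detected on no array of either genotype at 24 h. In all of these the genotypes did not overlap.

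Mrpl40 and Mrpl52, both without bacterial counterparts, were called higher at all 3 times. Mrpl40 gave 4.83, 4.56 and 4.62 in wild type and 4.88, 4.96, 5.07, 5.32 and 5.60 in mutant at 0 h (limma adjusted p = 0.00519). At 12 h it gave 4.93, 4.96 and 4.95 and 5.47, 5.49, 5.37, 5.46 and 5.48 (adjusted p = 0.00487). Mrpl52 stood at 4.92, 4.69 and 4.88 and 4.997, 5.57, 5.46, 5.46 and 5.35 at 24 h (adjusted p = 0.027). Neither was detected on any wild-type array, so no fold is given at any time. The 24 h call of Mrpl52 was lost in 9 of 17 alternatives, with a largest adjusted p of 0.43, among them leaving out any 1 wild-type 24 h array or mutant 24 h replicate 2, 3 or 4. That of Mrpl40 was lost in 1, with median centring (adjusted p = 0.494).

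The 2 lower members at 24 h were Mrpl20 and Mrpl37. Mrpl20, whose bacterial counterpart is needed to assemble the large subunit, gave 6.43, 6.53 and 6.10 in wild type and 5.59, 5.45, 5.36, 5.52 and 5.65 in mutant. It fell by 0.84 ± 0.16 (SE) on the log2 scale in mutant (limma adjusted p = 0.000492), with 2 of 3 wild-type and 3 of 5 mutant arrays detected. Mrpl37 gave 6.45, 6.51 and 5.94 and 5.45, 5.53, 5.50, 5.69 and 5.62 (difference -0.74 ± 0.21, adjusted p = 0.0157), with 2 of 3 and 4 of 5 detected. Neither overlapped between genotypes. Of the 11 members detected in both genotypes at 24 h, 0 were called higher and these 2 lower, against 7.2% and 18.5% of the 1695 genes so detected, a choice with the same limit as at 12 h. With median centring neither passed the test, at -0.29 (adjusted p = 0.58) and -0.17 (adjusted p = 0.837), and without wild-type 24 h replicate 1 or 2 the adjusted p of Mrpl37 was 0.0716 or 0.101.

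Groups did not overlap at 24 h for 12 members higher in mutant and 4 lower, against 23.1% and 15.6% of all genes. The count of calls was 1 with median centring (10.5% of all genes called) and 14 in the authors' values (32%). Without wild-type 24 h replicate 2 it was 3. Over all genes 51.3% of 24 h calls were higher, 84.9% with median centring and 78.1% in the authors' values.

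Across the 3 times 17 tested members were called at none on the probe read. Calls at 0 h and 12 h were both higher for 9 members, of which Mrpl40 and Mrpl52 were also higher at 24 h. The other 7 were Mrpl12, Mrpl23, Mrpl28, Mrpl43, Mrps12, Mrps17 and Mrps34. Several of these calls were lost in most alternatives tried, that of Mrpl12 in 10 of 19 at 0 h and 10 of 17 at 12 h, of Mrpl28 in 10 of 19 and Mrps34 in 11 of 19 at 0 h, and of Mrpl43 in 11 of 17 at 12 h. Leaving out wild-type 0 h replicate 1 or 2 ended the 0 h calls of Mrpl12, Mrpl28 and Mrps34, and leaving out any 1 wild-type 12 h array the 12 h calls of Mrpl12 and Mrpl43. Mrpl12, the stalk protein that recruits translation factors, stood at 4.84, 4.91 and 4.87 in wild type and 5.14, 5.85, 5.67, 5.74 and 5.85 in mutant at 12 h. Mrps17, a primary RNA-binding protein of the small subunit, stood at 5.49, 4.95 and 4.69 and 5.65, 5.997, 5.94, 6.01 and 5.89. On the probe read, Mrpl37 was the 1 member called in opposite directions, higher at 0 h (adjusted p = 0.0115) and lower at 12 and 24 h. Another probe of Mrps33, in a limma fit over all probes past the filter, was higher in mutant at 0 h (0.73, adjusted p = 0.0179). At 24 h that probe was lower in mutant (-0.71, adjusted p = 0.0417).

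**Figure D4:**
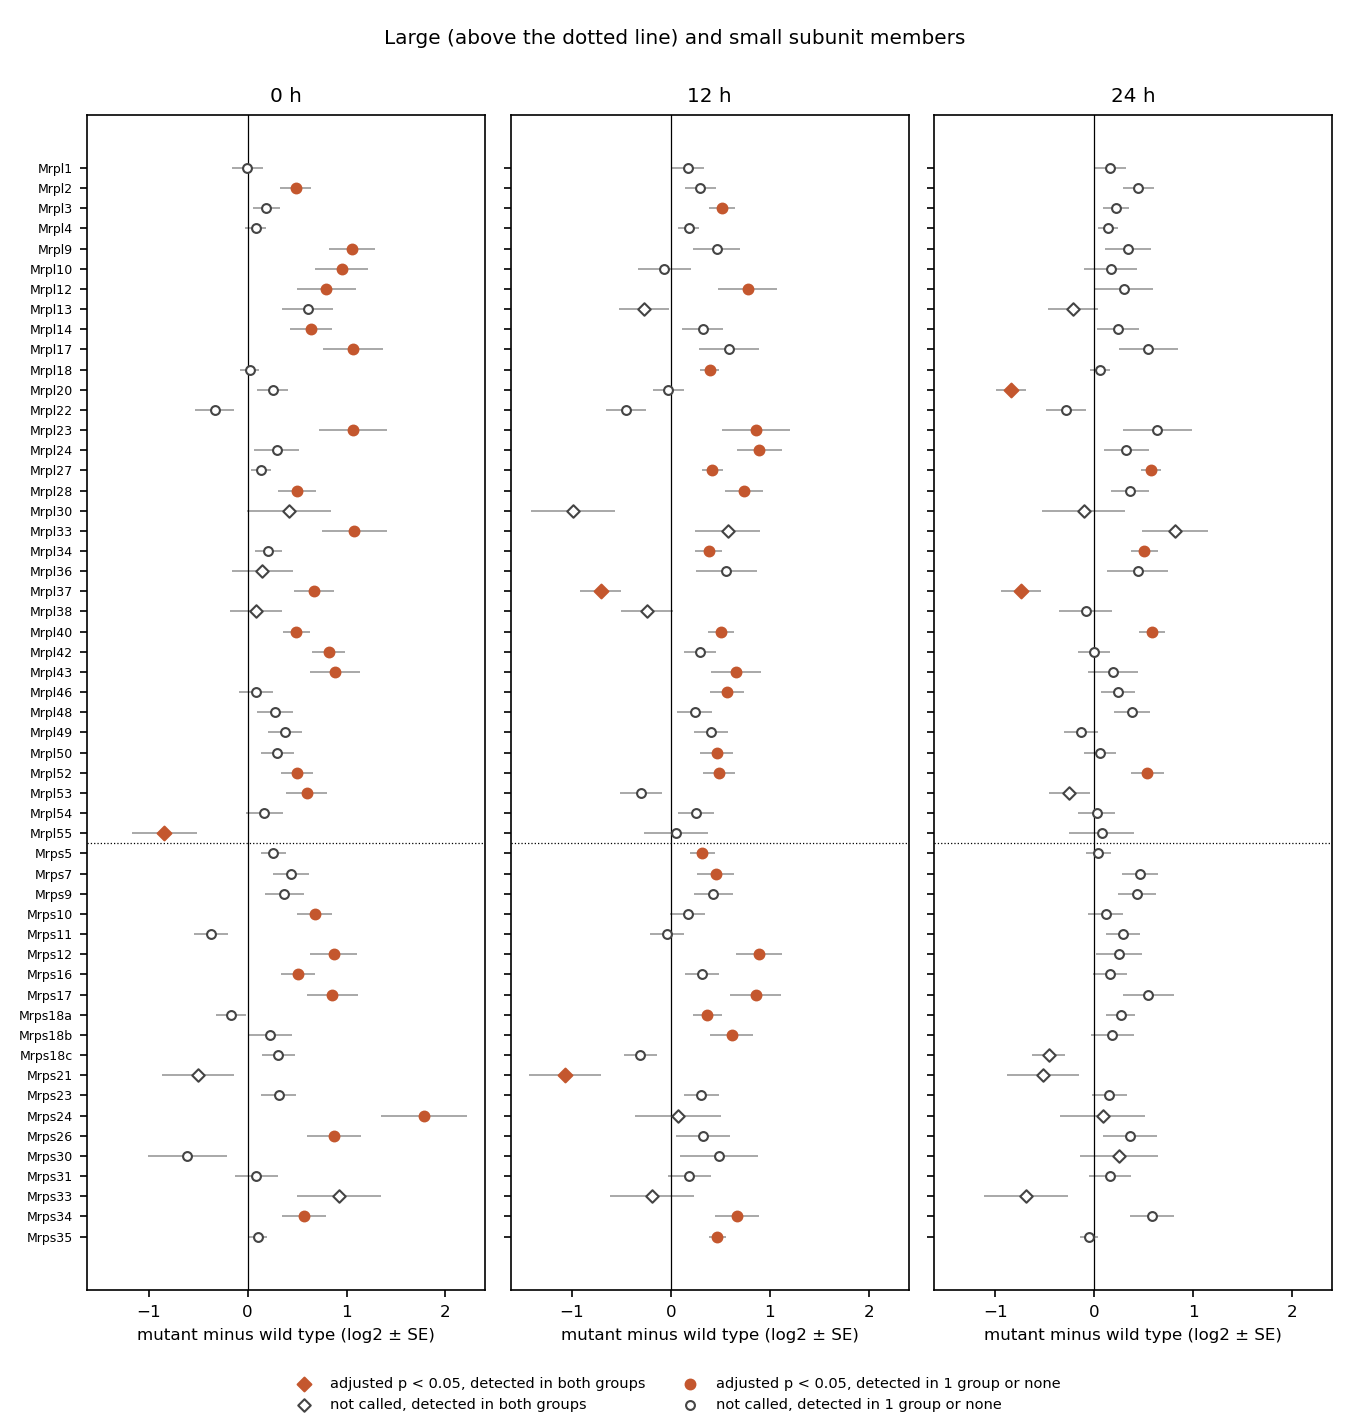
Fitted mutant minus wild-type difference of each of the 54 tested members (log2 ± SE) at 0, 12 and 24 h, large subunit above the dotted line, filled where the limma adjusted p was below 0.05. Diamonds were detected on at least 1 array of each genotype, circles were not and show no measured fold. The filled diamonds, Mrpl55 at 0 h, Mrps21 and Mrpl37 at 12 h, and Mrpl20 and Mrpl37 at 24 h, lie left of 0, with signs at 0 and 12 h that turn under median centring, and the filled circles lie right of it.

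Both subunits had members called between genotypes, with medians that lay close together. At 0 h 15 of 34 large subunit members were called higher and 1 lower, with a median difference of 0.40, and 7 and 0 of 20 small subunit members, with a median of 0.34. At 12 h the calls were 13 and 1 (median 0.39) in the large and 8 and 1 (0.32) in the small subunit. At 24 h they were 4 and 2 (0.21) and 0 and 0 (0.17), with 4 small subunit members higher and 1 lower at an unadjusted p below 0.05. Between genotypes the difference between the medians of the subunits was at most 0.06 as named. With Mrps18a and Mrps30 moved to the large subunit, where they sit despite their names, it was 0.07 at 12 and 24 h. At 0 h it turned from 0.06 to -0.06 with that move. Among the time comparisons it was largest from 0 to 12 h in wild type, at 0.15 as named and 0.09 moved. The subunit medians as named were 0.29 (large) and 0.14 (small) there. Of the 34 tested members with a bacterial counterpart 14 were called higher at 0 h and 14 at 12 h, and of the 20 without one 8 and 7.

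Other parts of the mitochondrial translation apparatus were mostly below the filter. Of the listed mitoribosome proteins with other symbols, Dap3 and Chchd1, both of the small subunit, were tested of 4 on the array. Both were called higher in mutant cells at 0 h (limma adjusted p = 0.00242 and 0.0003), with no wild-type array detected. Chchd1 was at least 1.25-fold higher at 12 h (adjusted p = 0.00799). Of 12 mitochondrial translation factors 2 were tested, of which Tufm, the elongation factor that brings tRNA, was called higher at 0 h (adjusted p = 0.00623). Of 14 mitochondrial aminoacyl-tRNA synthetases 2 were tested. Fars2, which charges phenylalanine tRNA, was called higher at 0 h (difference 1.48 ± 0.49, adjusted p = 0.0184; 5 of 5 mutant and 1 of 3 wild-type arrays detected) and differed by 0.18 at 12 h (adjusted p = 0.786). Of 14 tested factors of mitoribosome assembly and mitochondrial RNA, 3 were called higher at 0 h, 5 at 12 h and 2 at 24 h, among them Rbfa, which helps to mature the small subunit, at 0 and 12 h. Eral1, a chaperone of the small subunit's RNA, was the 1 factor called lower, at 12 h (adjusted p = 0.0186), with mutant arrays detected and wild-type arrays not.

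Of 54 tested cytosolic ribosomal proteins 23 were called higher in mutant and 5 lower at 0 h, 20 and 7 at 12 h, and 13 and 6 at 24 h, with medians of 0.44, 0.37 and 0.32. Of 58 tested nuclear-encoded respiratory chain subunits, partners of the proteins the mitoribosome makes, 26 and 7 were called at 0 h, 11 and 14 at 12 h, and 8 and 15 at 24 h, with medians of 0.65, -0.12 and -0.16. No test compared these lists with the members.

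**Figure D5:**
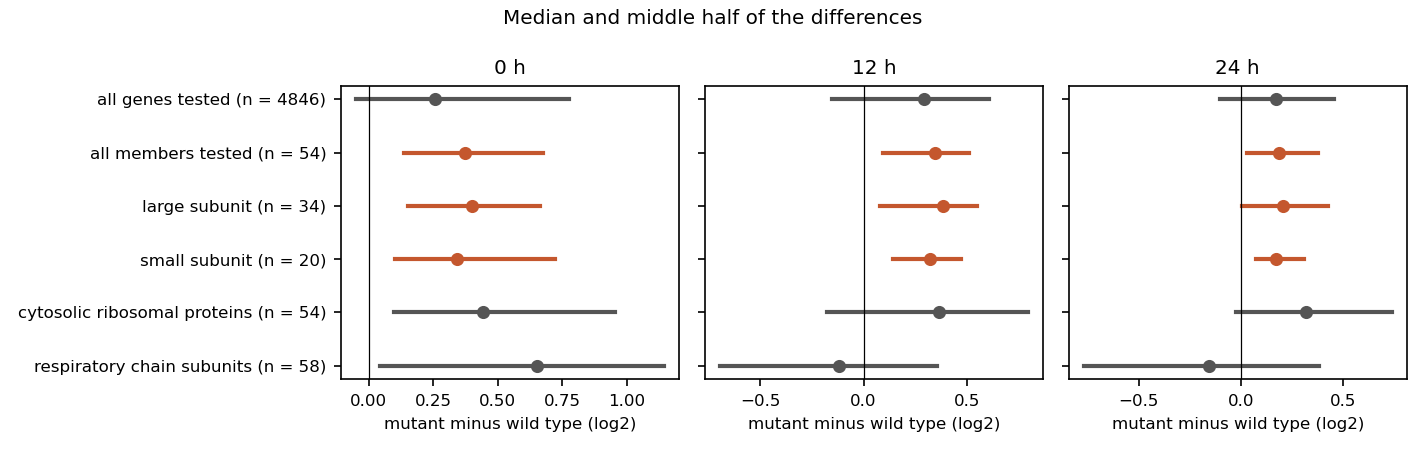
Median (point) and interquartile range (line) of the fitted mutant minus wild-type differences (log2) at 0, 12 and 24 h for all genes, the members, each subunit and 2 other lists. The members' medians of 0.38, 0.35 and 0.19 lie near those of all genes, 0.26, 0.29 and 0.17, under quantile normalization, while the medians of the respiratory chain subunits lie below 0 at 12 and 24 h.

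Markers of other blood cells moved with genotype too. Of 12 tested B cell markers 12 were called higher in mutant at 0 h, 11 at 12 h and 0 at 24 h. Their summed linear signal was 567 to 1320 in wild type and 2420 to 8010 in mutant at 0 h, 1330 to 1860 and 2850 to 8220 at 12 h, and 933 to 1530 and 1340 to 3050 at 24 h. Pax5 and Cr2 were detected nowhere, and up to 4 of 15 listed markers were detected on a wild-type 0 h array and up to 12 on a mutant one. Neutrophil markers summed to 828 to 2200 in wild type and 3210 to 12800 in mutant at 0 h, with Mpo, Elane and Prtn3 never detected, and 7 of 10 tested were called higher. Of 9 T cell markers 7 were called higher at 0 h (1 lower), summing to 654 to 1020 in wild type and 1080 to 1980 in mutant, with Cd4, Cd5 and Cd8a detected nowhere. Of 8 platelet markers 6 (368 to 939 against 1600 to 2860) and of 6 monocyte markers 3 (288 to 1100 against 2330 to 7330) were called higher at 0 h. At 12 h 5 neutrophil, 7 T cell, 6 platelet and 4 monocyte markers were called higher. The part of these cells in the members' differences was not tested, and in bulk samples fewer cells of a type and less RNA per cell cannot be told apart. Reticulocyte markers summed to 89500 to 94500 in wild type and 79900 to 89600 in mutant at 0 h. On these arrays 5 to 6 of 10 were detected, globins among them. Of 9 tested reticulocyte markers 1 was called higher in mutant and 3 lower at 0 h, 2 and 1 at 12 h, and 1 and 1 at 24 h. Epb42 was never detected, and Sptb, Ank1 and Bpgm were detected on no 0 h array.

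From 0 to 12 h of wild-type culture 13 members were called higher and 3 lower (limma, 24.1% and 5.56%), against 35.9% and 8.75% of all genes (44.7% in either direction). Of the called members 2 were detected on at least 1 array at both times, 6 at a single time and 8 at neither. For those 8 no change was measured above background. Mrpl30 (values above) rose by 2.56 ± 0.47 (SE) on the log2 scale (adjusted p = 0.000126), from 1 of 3 arrays detected to 3 of 3. Against wild-type 0 h replicate 1 alone, the array of low background that detected it, the difference was 1.13. Mrpl37 was detected on no array at 0 h and on 2 of 3 at 12 h (adjusted p = 6.53e-06). Mrps24 likewise went from 0 to 2 arrays (adjusted p = 0.00939), and against wild-type 0 h replicate 1 alone its difference was 0.59. Mrps18c, one of the mammalian relatives of bacterial S18, stood at 4.68, 4.72 and 4.62 at 0 h and 5.998, 6.12 and 5.59 at 12 h (adjusted p = 1.49e-05), below background at both times.

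Mrps33, a small subunit protein without a bacterial counterpart, gave 7.06, 4.75 and 4.83 at 0 h and 7.26, 6.97 and 6.37 at 12 h (difference 1.32 ± 0.48, limma adjusted p = 0.027). Its groups overlapped, and against the 1 wild-type 0 h array of low background alone, replicate 1, the difference was -0.19 (adjusted p = 0.668). Mrpl55 fell, from 6.16, 7.83 and 5.28 to 4.76, 4.60 and 4.71 at 12 h (adjusted p = 0.00051), detected on 1 array at 0 h and on none at 12 h, so no fold is given. Mrpl36, detected on 1 wild-type array at 0 h and none at 12 h, and Mrps30, on none, were the other two called lower (adjusted p = 0.0129 and 0.0427), and for Mrps30 the sign turned with the 0 h array of low background alone (0.07, adjusted p = 0.912). Groups did not overlap for 23 members higher and 5 lower at 12 h, against 46% and 8.23% of all genes. Only 3 members were called with median centring and 25 without background correction, against 20.3% and 52.2% of all genes.

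From 12 to 24 h of wild-type culture limma called 1 member higher, Mrpl20, and 0 lower (1.85% and none, also 1 and 0 at an unadjusted p below 0.05), against 3.94% and 1.88% of all genes (5.82% in either direction). Mrpl20 stood at 5.27, 5.23 and 5.08 at 12 h, on no array above background, and at 6.43, 6.53 and 6.10 at 24 h, on 2 of 3 (adjusted p = 0.000126). The values did not overlap, and with median centring the call was lost (0.67, adjusted p = 0.44). Over all genes 67.7% of these calls were higher, 54.4% with median centring and 51.8% in the authors' values.

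In mutant culture 14 members were called higher at 12 h than at 0 h and 3 lower (limma; 25.9% and 5.56%), against 23.2% and 4.62% of all genes (27.9% in either direction). Mrpl30 rose by 1.15 ± 0.37 (SE) on the log2 scale (adjusted p = 0.0229), from 3 to 5 of 5 arrays detected. Mutant 0 h replicates 1 and 2, of high background, did not detect it, at 4.91 and 4.87. The 0 h arrays that did gave 6.49, 6.62 and 6.40, closer to the 12 h values above. Mrps18c rose from 4.81, 4.91, 4.78, 5.09 and 5.34 to 5.67, 5.52, 5.58, 5.53 and 5.66, with 1 and 5 arrays detected (adjusted p = 0.00447). Mrpl49 gave 4.69, 4.69, 5.24, 5.55 and 5.17 and 5.67, 5.75, 5.70, 5.44 and 5.57 (adjusted p = 0.00849), with 1 and 5 detected. Mrpl18, Mrpl34 and Mrps35 were called higher as well, without a detected array at 0 h.

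The 3 called lower were Mrps10, Mrps26 and Mrpl55. Mrps10 fell from 5.56, 6.47, 5.31, 5.82 and 5.29 to 4.82, 4.75, 4.96, 5.003 and 4.82, by 0.82 ± 0.15 (SE) on the log2 scale (limma adjusted p = 0.000666), with 3 arrays and then 1 detected. Mrps26 fell by 0.86 on its brighter probe (adjusted p = 0.0103), while its other probe gave 0.39 (adjusted p = 0.0809), so its probes disagree in sign. Mrpl55 fell from 5.44, 6.36, 5.40, 5.67 and 5.05 to 4.61, 4.75, 4.73, 4.92 and 4.70 (adjusted p = 0.03), detected on 2 arrays at 0 h and on none later, and that call was lost without mutant 0 h replicate 2 or mutant 12 h replicate 1, 2, 3 or 5. Over all genes 83.4% of calls were higher, and 67.8% in the authors' values. With only the 0 h arrays of high background 41 members were called, against 60.6% of all genes. Without mutant replicate 2 of 0 h or of 12 h 11 members were called.

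From 12 to 24 h of mutant culture 8 members were called lower and 1 higher (limma; 14.8% and 1.85%), against 14.6% and 12.6% of all genes (27.2% in either direction). Mrpl24 fell from 5.41, 5.82, 6.01, 6.06 and 6.07 to 4.63, 4.80, 5.23, 5.28 and 5.13, by 0.86 ± 0.20 (SE) on the log2 scale (adjusted p = 0.00249), with 4 arrays and then 1 detected. Mrpl43, a large subunit protein without a bacterial counterpart, fell from 6.02, 6.42, 6.20, 6.29 and 6.27 to 5.26, 5.65, 5.51, 5.50 and 5.45, by 0.77 ± 0.22 (SE; adjusted p = 0.0114), with 5 and then 4 detected. Neither overlapped between times.

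Mrps35, Mrps5 and Mrpl18 were each detected on 3 mutant arrays at 12 h and on none at 24 h (limma adjusted p = 0.000485, 0.00336 and 0.0185). Mrps21 was the 1 member that rose, by 0.99 ± 0.32 (SE; adjusted p = 0.0233), with all arrays detected and no overlap. Leaving out mutant 12 h replicate 3, 4 or 5 or 24 h replicate 1 or 2 raised that adjusted p to between 0.0584 and 0.0647. Over all genes 46.3% of calls were higher, 17.3% with median centring and 88.5% in the authors' values. The member count was 30, all lower, with median centring (43.3% of all genes called) and 4 in the authors' values (21.8%). Without mutant 24 h replicate 1 it was 5.

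The change from 0 to 12 h differed between the genotypes for 2 members by the interaction term, both more negative in mutant (3.7%; 3 higher and 8 lower at an unadjusted p below 0.05), against 12.2% of all genes lower and 3.36% higher (15.6% in either direction). For Mrpl37 the mutant change minus the wild-type change was -1.38 ± 0.29 (SE; limma adjusted p = 0.00197), and with median centring it was -0.42 (adjusted p = 0.802). For Mrpl53 it was -0.90 ± 0.30 (adjusted p = 0.0419), and no wild-type array at 0 or 12 h detected it. With 1 array left out it passed only without wild-type 0 h replicate 1, wild-type 12 h replicate 3 or mutant 0 h replicate 1, and its adjusted p was otherwise 0.0503 to 0.118. The members with the next lowest p, Mrps35 (0.36 ± 0.13, adjusted p = 0.0503) and Mrps24 (-1.72 ± 0.61, adjusted p = 0.0593), did not pass. These are values of the probe read. Another probe of Mrps33 passed in a limma fit over all probes past the filter (-1.18 ± 0.34, adjusted p = 0.0187). With the replicate as a random block 8 members were called, 3 higher and 5 lower, against 20% of all genes. Without wild-type 0 h replicate 1 the count was 8, without mutant 0 h replicate 1 or 2 it was 9 or 4, and it was 1 without wild-type 12 h replicate 2, mutant 0 h replicate 3 or mutant 12 h replicate 3, 4 or 5. Over all genes 21.6% of these calls were higher, 9.18% with median centring and 6.52% in the authors' values.

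From 12 to 24 h the interaction was called for 1 member, Mrps35, whose change was more negative in mutant, against 0.392% of all genes lower and 0.908% higher (1.3% in either direction). It was -0.52 ± 0.13 (SE; limma adjusted p = 0.0365), with only the mutant 12 h arrays above background, and the adjusted p was 0.0644 to 0.132 without wild-type 12 h replicate 2 or 3, wild-type 24 h replicate 1 or 2, mutant 12 h replicate 3, 4 or 5, or mutant 24 h replicate 1, 2 or 5. With the replicate as a random block 2 members were called, Mrpl20 at -0.82 (adjusted p = 0.0274) and Mrps35 (adjusted p = 0.00987), against 2.23% of all genes. Without wild-type 24 h replicate 3 or mutant 12 h replicate 1 the count was 2. Over all genes 69.8% of these calls were higher, and 96.7% in the authors' values.

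Among the 54 tested members, Mrpl1, Mrpl22, Mrpl38, Mrpl48, Mrps9, Mrps11 and Mrps31 were called in none of the comparisons on the probe read. Other probes of Mrpl48 and Mrps31 did pass in a limma fit over all probes past the filter. Another Mrpl48 probe rose from 0 to 12 h in wild type and mutant (adjusted p = 0.000496 and 0.00298). It was also higher in mutant at 24 h (adjusted p = 0.0349). Another Mrps31 probe was higher in mutant at 12 h (adjusted p = 0.0187) and rose from 0 to 12 h in mutant (adjusted p = 0.0195). Mrpl38 was detected on 12 mutant arrays and 2 wild-type arrays.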

How the data were processed

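RNA from 24 samples of mouse reticulocyte-rich blood was hybridised to Illumina bead arrays. Per the labels' protocols, RNA was isolated with RNeasy columns and amplified with Illumina's TotalPrep kit, while the labelling field names DASL. Groups came from the labels, whose 12 h was kept where a key of the authors writes 15 h. The deposited unnormalized values give a signal intensity per probe, and per the file headers it carries no normalization or background subtraction. Deposited with it are a detection p-value, the number of beads and their standard error. The authors' processed values, deposited on a linear intensity scale, were on each array a straight-line function of the raw signal (largest residual 0.0145; column medians 93.3 to 108), and their centring and method are not given in the sources used here.

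Intensities were corrected with limma's normexp model on negative controls inferred from the detection p (offset 16), quantile-normalized and put on the log2 scale, so log2 values here come from the deposited intensities. Of 25697 probes 23978 had a gene symbol in the platform annotation and 1719 had none; all 76 members matched a RefSeq symbol. Probes detected (p below 0.01) on 3 or more arrays were kept, 1 per gene, the one with the highest mean. A linear model of 6 group means was fitted with limma 3.58.1 (R 4.3.3; empirical Bayes with trend), with Benjamini-Hochberg adjustment over 4846 genes per comparison and a threshold of 0.05, and was tested on simulated data. Tables and figures used Python 3.11.15, pandas 2.3.3 and matplotlib 3.10.9. The p-values measure the spread between these samples, since the sources give no further detail on the animals. No arrays were identical.

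A probe detected on no array of a group has only a bound there, so a fold is given, where every array of the brighter group detected it, as at least the brighter group's mean over, per array, the higher of the lowest detected signal and the probe's own. Such a fold holds on the quantile-normalized scale and carries no error. Members and lists were chosen with earlier results of these data known. Named members were those with the smallest adjusted p per subunit and comparison (up to 4 for genotype, 3 for time), those called at 2 or 3 times, up to 4 per interaction, and members called nowhere or not tested. Members behind counts of 5 or fewer and the 7 members detected on 3 or more wild-type arrays were added after their values were seen. Mrpl55 was moved to the members without a bacterial counterpart.

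Replicate numbers were checked for pairing by the correlation of same-numbered samples' deviations from their group means. It was 0.308 to 0.515 for wild type 12 and 24 h, 0.113 to 0.401 for mutant 0 and 12 h and 0.176 to 0.668 for mutant 12 and 24 h, over 0.1 in every pair, but 0.0031 to 0.1 for wild type 0 and 12 h. Alternatives changed the background correction, scaling, values, filters, probes, arrays and samples in the fit.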

Additional observations from a re-analysis of the deposited data

Results flagged for a closer look

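Groups of 5 mutant arrays were examined for the named members and for the number of members detected. Of 108 groups 10 held 1 array whose gap to the nearest other, as a share of the range, was above Dixon's 95% critical value. Chance flags about 1 in 20 independent groups. Genes read on the same arrays are not independent, so nothing is read from the number flagged. Mutant 0 h replicate 1 stood low for Mrpl33 at 4.82 on the log2 scale, with the other arrays at 6.40 to 6.89, and for Mrps24 at 5.02, with the others at 7.34 to 7.84. Mutant 0 h replicate 2 stood low for Mrps30 at 4.93. Mutant 12 h replicate 1 stood low for Mrpl12 at 5.14 and for Mrps5 at 4.71, and replicate 3 for Mrpl40 at 5.37. At 24 h mutant replicate 1 stood low for Mrps12 at 4.96 and for Mrps34 at 5.25. In the same group replicate 2 stood high for Mrpl49 at 5.62 and replicate 4 for Mrpl55 at 4.89.

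The change with time differed between genotypes by the interaction term for 3 members on the probe read (limma). From 0 to 12 h the mutant change minus the wild-type change was -1.38 for Mrpl37 and -0.90 for Mrpl53, and from 12 to 24 h it was -0.52 for Mrps35. Mrpl37 was detected on 2 wild-type 12 h arrays and 5 mutant ones. Mrpl53 and Mrps35 were detected on no wild-type array at the times compared.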

How the results depend on the processing

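The number of members called depended on the processing, and causes were not tested. Percentages in this paragraph are the shares of all genes called in the same setting and comparison. Without background correction 25 members were called from 0 to 12 h in wild type (52.2%) and 0 for the interaction from 12 to 24 h (0.805%). With median centring the counts for genotype were 44 (69.9%) and 1 (10.5%) at 12 and 24 h. From 0 to 12 h and 12 to 24 h they were 3 (20.3%) and 0 (2.58%) in wild type. In mutant they were 10 (30%) and 30 (43.3%). Both interactions gave 0 (2.02% and 0.681%). The authors' values gave 7 (24.6%) and 14 (32%) for genotype at 12 and 24 h. They gave 5 (13.2%) and 4 (21.8%) for mutant from 0 to 12 h and 12 to 24 h. For the interaction from 0 to 12 h they gave 6 (21.2%). Without a detection filter the counts were 15 at 12 h (16.5%) and 3 for mutant from 12 to 24 h (5.47%). The interactions gave 1 (7.41%) and 0 (0.5%) there. With detection p below 0.05 the interaction from 0 to 12 h gave 4 (15.5%). Array weights gave 48 (82.7%) and 26 (54.6%) at 12 and 24 h. From 12 to 24 h they gave 12 (31%) for wild type and 34 (67.5%) for mutant. For the interactions they gave 11 (30.2%) and 16 (35.6%). With only the groups compared in the fit the counts were 0 (12.2%), 37 (72.7%) and 21 (44.8%) at 0, 12 and 24 h. Mutant from 12 to 24 h gave 26 (51.8%), and the interactions 1 (9.02%) and 3 (10.3%). Alternatives added after seeing the data were the 0 h arrays of high background alone, those of low background alone, and a filter on wild-type arrays. High background alone gave 7 at 0 h, 25 and 41 from 0 to 12 h in wild type and mutant, and 14 for the interaction. Low background alone left 1 wild-type array, so no count is given. The filter on wild-type arrays gave 4 (59.8%), 3 (62.7%) and 1 (33.1%) for genotype at 0, 12 and 24 h. From 0 to 12 h it gave 7 (75.4%) in wild type, 1 (19.5%) in mutant and 3 (47%) for the interaction. From 12 to 24 h these were 0 (18.9%), 1 (40.8%) and 0 (8.86%). Only 7 tested members were detected on 3 or more wild-type arrays, so these counts cannot be set beside those of the other settings.

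With the replicate as a random block (consensus correlation 0.156) the interactions gave 8 and 2 calls, against 20% and 2.23% of all genes. The time comparisons gave 22, 1, 20 and 13, against 49.5%, 8.3%, 34.3% and 33.9%. Numbers did not pair samples across genotypes, where a fixed replicate block gave 16, 14 and 5 calls. Leaving out 1 array gave 17 to 29, 11 to 26 and 3 to 8 members at 0, 12 and 24 h, 11 to 19 and 1 to 1 in wild type from 0 to 12 h and 12 to 24 h, 11 to 22 and 5 to 11 in mutant, and 1 to 9 and 0 to 2 for the interactions. Signs turned with median centring for Mrpl55 at 0 h (0.24) and for Mrpl13 (0.94), Mrpl37 (0.57) and Mrps21 (0.0621) at 12 h, and with the 0 h arrays of low background for Mrps30 (0.0669) and Mrps33 (-0.19) from 0 to 12 h in wild type. Over all named members and alternatives 1484 values kept their side of the threshold, 15 of them with a turned sign and no call, 241 lost a call, 72 gained one and 6 reversed. A slide or scan block was not run, as the files give no slides. Signal over background limits these results, since 40 of the 54 tested members were detected on no wild-type array.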
